A study of Saccharomyces cerevisiae with 17 samples.

Results

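A set of 248 gene identifiers, 4.28% of the 5797 counted, had at most 2 counts in the CIP/TAP library and at least 20 in the TAP library. They were chosen by those raw counts, and the 3 identifiers YJL028W, YIL102C and YJL011C were left out by the rule. Each count is a number of RNA 5′ ends recorded by SMORE-seq, a method that ligates an adapter to 5′ ends and sequences from it. The groups were poly(A)-selected RNA treated with CIP and then TAP (1 library), poly(A)-selected RNA treated with TAP alone (1 library), and RNA depleted of ribosomal RNA (3 samples in 1 table, whose titles name no TAP or CIP treatment). All came from wild-type BY4741, a laboratory strain of budding yeast (Saccharomyces cerevisiae), grown overnight in the rich medium YPD to an optical density (OD600) of 0.8. With 1 library in each poly(A) group, and 1 column for the 3 ribo depletion samples together, there was no replicate check and no test, and every interval below covers counting error alone.

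Messenger RNA made by RNA polymerase II carries a cap on its 5′ end. Decapping leaves a 5′ monophosphate, which marks the RNA for degradation from that end, and transcripts of RNA polymerase III, such as tRNA, are not capped and carry 5′ phosphates. CIP (calf intestinal phosphatase) removes such phosphates and so blocks ligation, whereas TAP (tobacco acid pyrophosphatase) opens the cap to a phosphate that can be ligated. The comparison of CIP/TAP with TAP therefore asks which 5′ ends are uncapped. Removal of ends by CIP and any other difference between the 2 libraries cannot be told apart here.

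The members had few counts each. In CIP/TAP, 135 members had 0 counts, 62 had 1 and 51 had 2. Their TAP count had a median of 32 and reached 168. Summed over the members, CIP/TAP held 164 counts (exact Poisson 95% interval 139.9 to 191.1) and TAP held 9229 (9041.7 to 9419.2). These sums were 0.0149% of the 1097457 CIP/TAP counts and 1.07% of the 864536 TAP counts. The log2 ratio of the sums, CIP/TAP over TAP, was −5.99 (95% interval −6.23 to −5.78) after TMM scaling, which sets library sizes from the bulk of the identifiers. This ratio follows from the rule and is a description of what was chosen.

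The same limits on raw counts, read in the other direction, were met at a similar rate. The members were 13.8% of the 1801 identifiers with at least 20 TAP counts. The opposite pattern, at least 20 counts in CIP/TAP and at most 2 in TAP, was found for 208 identifiers, 11.9% of the 1746 with at least 20 CIP/TAP counts. FIP1, part of the polyadenylation machinery, stood highest in that opposite set, with 237 counts in CIP/TAP and 1 in TAP. After it came MYG1 with 151 in CIP/TAP and 0 in TAP, and BUD13, a splicing factor, with 125 in CIP/TAP and 0 in TAP. CIP/TAP held more counts in all than TAP. With CIP/TAP scaled to the TAP total, the limits gave 248 members and 167 identifiers of the opposite pattern. Counts near 0 in 1 poly(A) library and not in the other thus occurred on both sides.

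**Figure D1:**
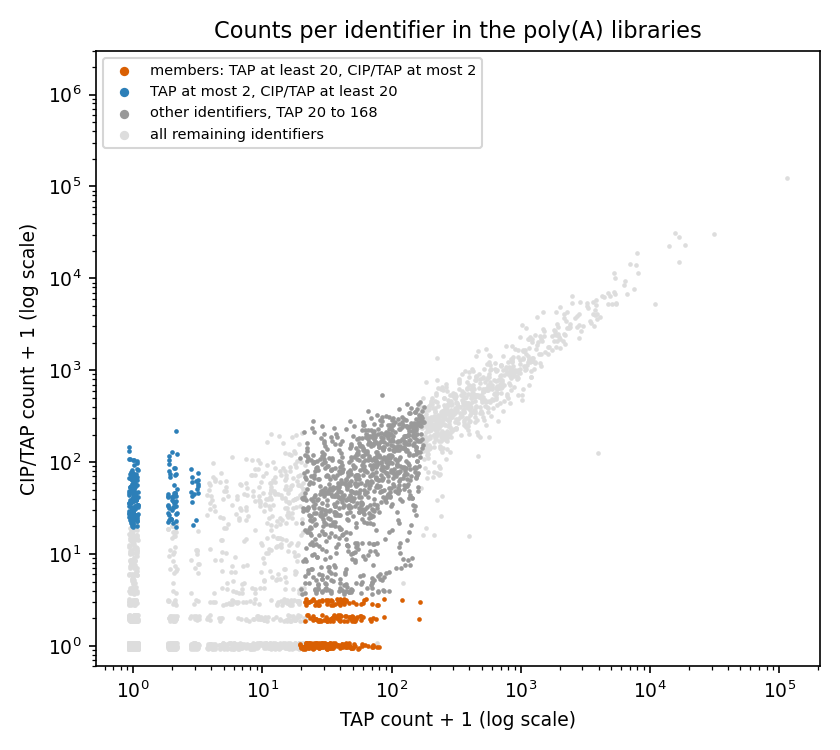
CIP/TAP count against TAP count of each identifier, both plus 1 on log scales, with points shifted slightly at random so that equal counts can be seen. The 248 members lie along the bottom and the 208 identifiers of the opposite pattern along the left edge, and the 909 other identifiers with 20 to 168 TAP counts lie between them.

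In both directions the share near 0 was highest below 30 counts. Of 138 identifiers with 20 to 24 TAP counts, 54 had at most 2 in CIP/TAP (39.1%). The share was 42.6% at 25 to 29 TAP counts (49 of 115), 34.3% at 30 to 39 TAP counts (68 of 198), 9.72% at 50 to 99 (35 of 360) and 1.08% at 100 to 199 (3 of 279). No identifier among the 578 with at least 200 TAP counts was that low in CIP/TAP. Read the other way, the share of identifiers with at most 2 TAP counts was 43.0% at 20 to 24 CIP/TAP counts (37 of 86), 36% at 25 to 29 (27 of 75), 27.1% at 30 to 39 (38 of 140), 17.0% at 50 to 99 (59 of 348) and 3.52% at 100 to 199 (10 of 284). At 50 counts and above there were 38 members, against 70 identifiers of the opposite pattern. With a minimum of 10 counts the numbers were 440 low in CIP/TAP and 273 low in TAP, so which side was larger depended on the limit.

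**Figure D2:**
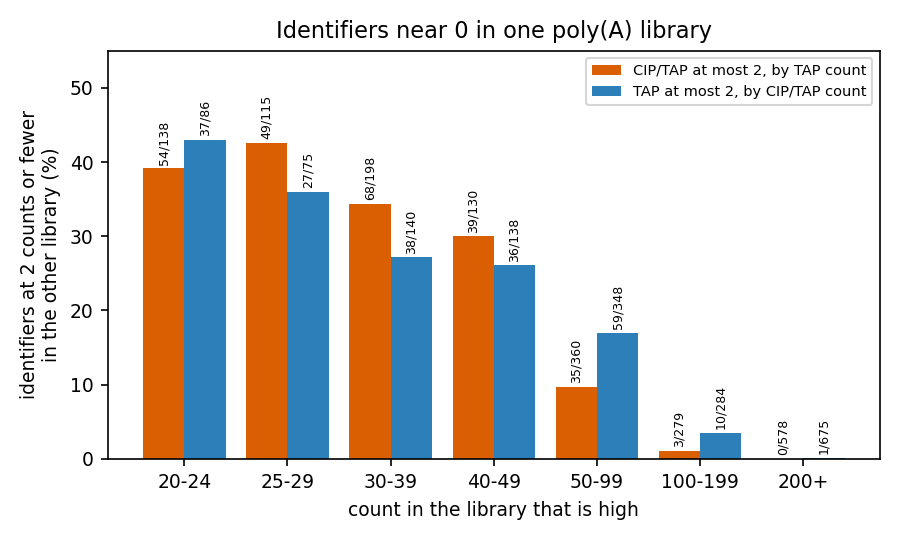
Percentage of identifiers with at most 2 counts in one poly(A) library, by their count in the other, with the number of identifiers over each bar. Orange bars hold the members, by TAP count, and blue bars the opposite pattern, by CIP/TAP count; both are highest below 30 counts, at 36% to 43.0%, and are under 4% at 100 to 199.

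At the edges of the rule the counts ran on without a break. The limit of 20 TAP counts was met exactly by 10 members. A further 22 identifiers had at most 2 counts in CIP/TAP and 19 in TAP, among them RPB5, a subunit shared by the nuclear RNA polymerases, with 0 in CIP/TAP and 19 in TAP. Just above the other limit, 39 identifiers had 3 counts in CIP/TAP and at least 20 in TAP. The highest of those were MAY24 with 3 in CIP/TAP and 89 in TAP, KTR3, a mannosyltransferase gene, with 3 and 86, and GIP3 with 3 and 85.

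The 20 members with the most TAP counts had 64 to 168 of them. ARP6, an actin-related subunit of the SWR1 complex that places the histone variant H2A.Z, led with 2 counts in CIP/TAP and 168 in TAP (log2 −6.26, 95% interval −9.63 to −4.70). PER33, a membrane protein of the endoplasmic reticulum and nuclear envelope, had 1 in CIP/TAP and 159 in TAP (−6.92, −12.81 to −5.0), and BIL1 had 2 and 130 (−5.89, −9.27 to −4.32). These were the only 3 members above 100 TAP counts. ARP6 lies on chromosome XII at 300673 to 301989 and PER33 on the same chromosome at 265456 to 266277, while BIL1 lies on chromosome XV at 888520 to 888750 (build sacCer3, the R64 assembly).

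Below them stood a pair of ribosome assembly factors. DBP8, a helicase of the small subunit pathway, had 1 count in CIP/TAP and 93 in TAP (−6.15, −12.04 to −4.21), and RIX7, an ATPase of the large subunit pathway, had 2 and 83 (−5.25, −8.63 to −3.66). TFA1, the large subunit of the transcription factor TFIIE, had 1 in CIP/TAP and 80 in TAP (−5.93, −11.83 to −3.99). All 3 intervals are wide, since each rests on 1 or 2 counts in CIP/TAP. AIM18, YDR514C, CSS2, INA17, HMF1, SEC65 and CDC9 had no CIP/TAP count. Against the 3 counts that a count of 0 allows in a library, AIM18, a mitochondrial protein gene with 77 TAP counts, was at least 29.1-fold lower in CIP/TAP. CDC9, the DNA ligase that joins fragments of the lagging strand, had 67 TAP counts and was at least 25.4-fold lower. SEC65, a subunit of the signal recognition particle, had 69 and was at least 26.1-fold lower, and INA17, an assembly factor of the mitochondrial ATP synthase, had 75 and was at least 28.4-fold lower. These bounds take the TAP count as it stands. The CIP/TAP over TAP bounds and intervals of single members also use the counts by which the members were chosen and ranked. They describe what was chosen and are not limits on an effect of CIP. With the counting error of both libraries, the interval of the log2 ratio ended at −4.53 for AIM18 and at −4.33 for CDC9. MAM1 of the meiotic monopolin complex, the phosphate transporter PHO84, YHR214C-E, CNM67 of the spindle pole body, the phosphatase SDP1, USA1 of endoplasmic reticulum protein degradation and PUS9 completed the 20. Each had 1 or 2 counts in CIP/TAP and 64 to 77 in TAP.

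**Figure D3:**
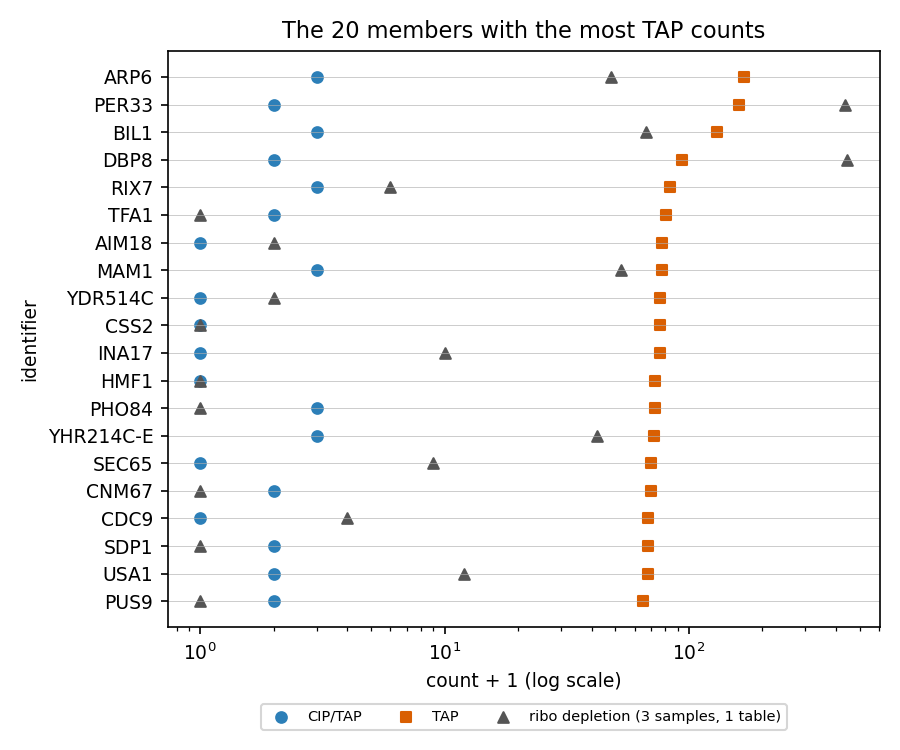
Counts plus 1 on a log scale of the 20 members with the most TAP counts in CIP/TAP (circles), TAP (squares) and the ribo depletion table (triangles). The CIP/TAP circles stand at 0 to 2 counts and the TAP squares at 64 to 168 by the rule, while the triangles run from 0 counts, for TFA1 among others, to 445 for DBP8.

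The ribo depletion table, which the rule did not use, listed no count for most members. It had 0 counts for 133 of 248 members (53.6%), 1 to 9 for 54, 10 to 99 for 45 and at least 100 for 16. The share with 0 counts was 58.5% over all 5797 identifiers and 15.7% for the 909 other identifiers with 20 to 168 TAP counts. A count of 0 was thus no more frequent among the members than over all identifiers, but more frequent than among those others. At least 10 counts were listed for 61 members (24.6%). The background was 31.5% of all 5797 identifiers, and 70.4% of the 909 other identifiers with 20 to 168 TAP counts. The identifiers of the opposite pattern resembled the members in this table, with at least 10 counts for 57 of 208 (27.4%) and 0 for 122 (58.7%). The shares also differed within narrow ranges of TAP counts. With 20 to 29 TAP counts, 24 of 103 members (23.3%) and 78 of 150 others (52%) had at least 10 ribo depletion counts. With 40 to 49, the numbers were 10 of 39 members (25.6%) and 55 of 91 others (60.4%), and with 50 to 99 they were 10 of 35 members (28.6%) and 242 of 325 others (74.5%). All 3 members with 100 to 168 TAP counts, and 187 of 213 others (87.8%), had at least 10. No test was run on these shares.

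**Figure D4:**
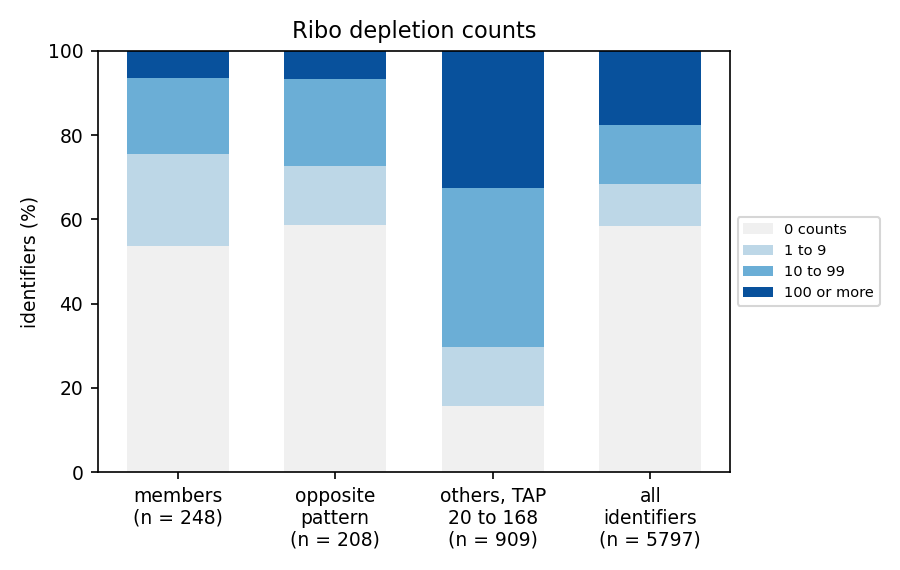
Percentage of identifiers by their ribo depletion count, for the members, the opposite pattern, the other identifiers with 20 to 168 TAP counts and all identifiers. The members and the opposite pattern have 0 counts for 53.6% and 58.7% of their identifiers. The share is 15.7% for the other identifiers in the TAP range and 58.5% for all identifiers.

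The 16 members with at least 100 ribo depletion counts held 73.5% of the 5848 ribo depletion counts of the whole set. PTR3, a component of the plasma membrane amino acid sensor, had 1 count in CIP/TAP, 48 in TAP and 922 in ribo depletion. DBP8 had 445 in ribo depletion and PER33 had 437. RDS1, a zinc cluster transcription factor gene, had 1 in CIP/TAP, 29 in TAP and 313 in ribo depletion. For these members counts were thus recorded under the identifier in libraries prepared another way.

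MAS1, a subunit of the peptidase that removes mitochondrial targeting sequences, had 0 in CIP/TAP, 29 in TAP and 280 in ribo depletion. ASP3-4, a cell wall asparaginase gene, had 0, 33 and 238 in the same order. It is 1 of 4 near-identical copies, and reads could be split among them, so its count is uncertain. NPR3, a regulator of the TORC1 kinase, had 214 counts in ribo depletion, AIM9 had 204, UTP14 of the small subunit processome had 183 and SRP68 of the signal recognition particle had 182. In CIP/TAP these last 4 had 0 or 1 count, and in TAP 27 to 57.

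TAP over ribo depletion gave the members a log2 ratio of summed counts of 1.08 (95% interval 1.03 to 1.13). Since the members were chosen for TAP counts, this too is a description. Of 75 members with at least 50 counts over the TAP and ribo depletion tables, 38 had a TAP value at least 2-fold above ribo depletion and 17 a value as far below. Over all 1646 identifiers so measured the shares were 31.9% higher and 38.0% lower. The rule asked for at least 20 TAP counts of the members alone, which favours higher TAP values, so no difference is read from these shares. PTR3 was at −3.83 (−4.29 to −3.42), and RDS1 at −2.99 (−3.61 to −2.46), both lower in TAP. PER33 was at −1.03 (−1.31 to −0.77), but at 0.25 with total counts, so no direction is given for it. TFA1, HMF1 and PHO84, with 80, 72 and 72 TAP counts, had none in ribo depletion, so that TAP, as counted, was at least 35.7-fold, 32.1-fold and 32.1-fold higher. The value of the summed ratio depended on scaling, and was 2.36 with total counts.

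The members' genomic surroundings differed from those of the other identifiers with 20 to 168 TAP counts. The median TAP count was 32 for members and 60 for those others, which by the rule also had more than 2 counts in CIP/TAP. The opposite pattern had surroundings like those of the members, so the difference is not particular to the members. The upstream neighbour is the closest gene of the annotation past the 5′ end. It is called divergent when on the opposite strand and tandem when on the same strand. A divergent neighbour within 500 bp was found for 42 members (16.9%), for 27 identifiers of the opposite pattern (13.0%), for 482 of the 909 others with 20 to 168 TAP counts (53.0%) and for 25.6% of all identifiers. A tandem neighbour was found for 141 members (56.9%), 121 of the opposite pattern (58.2%), 257 of the others (28.3%) and 48.8% of all identifiers. Because identifiers with counts so often had a close divergent neighbour, a count is not described here as the expression of the gene named. The sources used here do not state the strand setting of the counting.

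**Figure D5:**
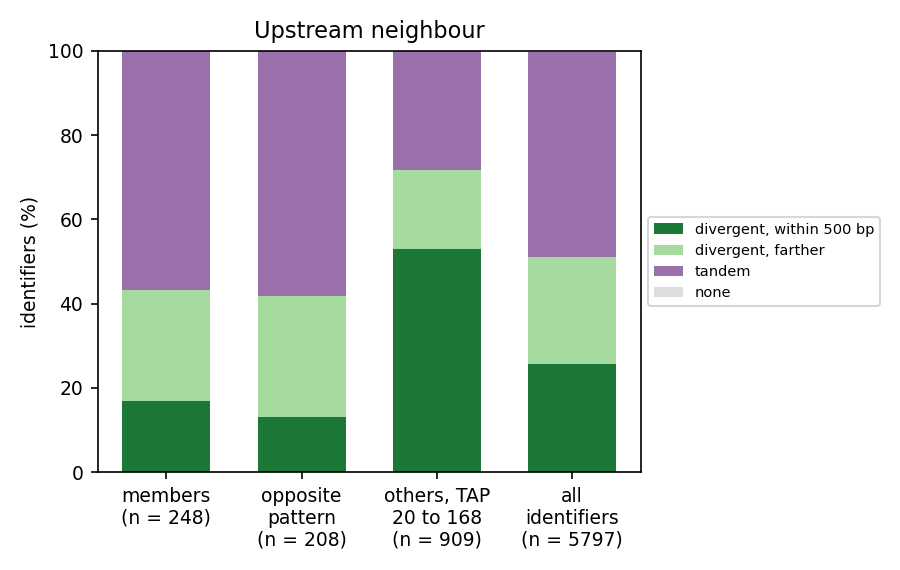
Percentage of identifiers by the orientation and distance of the upstream neighbour, for the members, the opposite pattern, the other identifiers with 20 to 168 TAP counts and all identifiers. A close divergent neighbour is found for 16.9% of the members, 53.0% of the other identifiers in the TAP range and 25.6% of all identifiers.

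The ribo depletion share was also lower for members than for the others within both of these classes, without matching on TAP or CIP/TAP counts. Among identifiers with a close divergent neighbour, 15 of 42 members (35.7%), 9 of 27 of the opposite pattern (33.3%) and 403 of 482 others (83.6%) had at least 10 ribo depletion counts. With a tandem neighbour the numbers were 33 of 141 members (23.4%), 29 of 121 of the opposite pattern (24.0%) and 126 of 257 others (49.0%). With 20 to 29 TAP counts, 10 of 103 members (9.71%) and 50 of 150 others (33.3%) had a close divergent neighbour. At 100 to 168 TAP counts it was 2 of 3 members and 76.5% of the others, so the share among the others was higher at high TAP counts. Gene length differed little, with a median of 1129.5 bp for members and 1206 bp for all identifiers.

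For 36 of the 42 members with a close divergent neighbour, the neighbour also has an identifier in the tables. The neighbour had at least 20 counts in both poly(A) libraries in 22 of the 36 (61.1%), in 15 of 27 for the opposite pattern (55.6%) and in 357 of 467 for the others with 20 to 168 TAP counts (76.4%). ARP6 starts 253 bp from SMC4, a condensin subunit gene, which had 203 counts in CIP/TAP and 76 in TAP. RIX7 starts 262 bp from IRC19, with 1027 in CIP/TAP and 974 in TAP. RPN13 starts 336 bp from DCK1, with 1288 in CIP/TAP and 1292 in TAP, while RPN13 itself had 0 in CIP/TAP, 53 in TAP and 65 in ribo depletion. Other neighbours had fewer counts in CIP/TAP, among them MOR1 beside KEI1, with 22 in CIP/TAP and 67 in TAP, and MRH4 beside PUS2, with 21 in CIP/TAP and 68 in TAP. Of 23 such neighbours measured with at least 50 counts, CIP/TAP exceeded TAP by 2-fold or more for 5 and fell as far short for 2. For neighbours of the others the numbers were 68 and 49 of 395, and for the opposite pattern 2 and 3 of 15. Over all 1679 identifiers so measured the shares were 22.2% higher and 15.6% lower, so nothing particular to the members' neighbours is read from these counts.

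Noncoding RNA genes lay beside few members, and the identifiers that the rule leaves out also start beside such genes. An upstream noncoding RNA gene within 500 bp was found for 7 members (2.82%), against 1.87% of the others with 20 to 168 TAP counts and 3.07% of all identifiers. A tRNA gene, made by RNA polymerase III, was the neighbour of 4 of them, PTR3, NPR3, FCF1 and RNH203 (1.61% of members, against 0.66% of the others and 2.14% of all identifiers). SSN8, the cyclin C of the Mediator complex, starts 295 bp from NME1, the RNA of RNase MRP, and had 0 counts in CIP/TAP, 24 in TAP and 9 in ribo depletion. LDB16 starts 308 bp from the snoRNA gene SNR43 and had 1 count in CIP/TAP, 31 in TAP and 51 in ribo depletion. YHR054C, which lies in the repeated CUP1 region and is therefore uncertain, starts beside RUF5-2 and had 1, 22 and 4 in the same order. Only PTR3, NPR3, SSN8, LDB16 and YHR054C have this neighbour in divergent orientation. The 3 identifiers that the rule leaves out all start within 500 bp of a divergent tRNA gene. They had 0 counts in CIP/TAP and 72 in TAP (YJL028W), 4 and 114 (YIL102C, above the limit of 2) and 1 and 29 (RPC17, YJL011C). With the identifiers that met both limits kept in, the noncoding share was 9 of 250 (3.6%) and the tRNA share was 6 of 250 (2.4%). These shares lie near the 3.07% and 2.14% of all identifiers, and with so few genes nothing is read from them.

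Members among chromatin and transcription genes included the subject of the series. HTZ1, which encodes H2A.Z (chromosome XV, 303579 to 303983), had 2 counts in CIP/TAP, 33 in TAP and 0 in ribo depletion (CIP/TAP over TAP log2 −3.93, 95% interval −7.33 to −2.26). IES2, a subunit of the INO80 remodeller (chromosome XIV, 244468 to 245430), had 1, 45 and 4 in the same order (−5.11, −11.01 to −3.12). With ARP6 these were 3 of the 14 genes of H2A.Z and its remodellers with at least 20 TAP counts (21.4%, against 13.8% over all such identifiers), out of 26 listed. SWR1, the ATPase of the same complex as ARP6, had 160 in CIP/TAP and 118 in TAP, so subunits of 1 complex did not share the pattern. Of 13 such genes measured with at least 50 counts, 2 were at least 2-fold lower in CIP/TAP and 1 higher, against 15.6% lower and 22.2% higher over all 1679 measured, and the median log2 ratio was 0.25 against 0.16.

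Genes of the machinery that makes, removes and follows the cap included 1 member, RRP46, among the 17 with at least 20 TAP counts (5.88%, against 13.8% over all such identifiers). With so few genes nothing is read from this share. None of 7 cap synthesis and cap binding genes and none of 23 decapping and 5′ decay genes was a member, though only 1 and 9 of them had at least 20 TAP counts. XRN1, the main cytoplasmic 5′ exonuclease, had 56 counts in CIP/TAP and 122 in TAP (log2 −1.30, −1.79 to −0.84), and DHH1, a decapping activator, had 251 and 47 (2.22, 1.78 to 2.72). Of 17 exosome and Ski complex genes, RRP46, an exosome core subunit, was a member with 2 in CIP/TAP, 22 in TAP and 103 in ribo depletion. MTR4, the exosome's helicase, had the opposite pattern with 37 in CIP/TAP and 0 in TAP, as did LSM2 of the decapping list with 41 and 1.

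The cytosolic ribosomal protein, proteasome, tRNA modification and vacuolar sorting lists held both members and identifiers of the opposite pattern. These lists, and that of mitochondrial ribosomal proteins, were drawn up by patterns in gene names. Genes of the same function under other names are not counted in them. Of 138 cytosolic ribosomal protein genes, RPL18B, RPL12A, RPS6B and RPP2A were members, with 0 to 2 counts in CIP/TAP and 26 to 40 in TAP, and 8 had the opposite pattern, RPS4A the highest with 91 in CIP/TAP and 1 in TAP. Only 8 of the 138 had at least 20 TAP counts, so the 4 members were 50% of those. The filter of 50 counts over both poly(A) tables left out the 4 members and kept 8 genes of this list. Among the 8 kept, CIP/TAP exceeded TAP by 2-fold or more for 4 and fell as far short for 0. Their median log2 ratio was 3.13, so the list as measured was not low in CIP/TAP. Most cytosolic ribosomal protein genes have a near-identical copy, so their counts are uncertain. Of 33 proteasome genes, RPN13, RPN12 and PRE3 were members, 3 of the 14 with at least 20 TAP counts (21.4%), and RPN9 and PRE1 had the opposite pattern. PUS9, TRM8 and PUS2 were the 3 members among 28 tRNA modification genes, 17 of which had at least 20 TAP counts (17.6%), and TRM12 had the opposite pattern. PUS9 and PUS2, both pseudouridine synthases, had 1 and 2 in CIP/TAP and 64 and 56 in TAP. VPS60 was the single member among the 41 genes so named for vacuolar protein sorting, 12 of which had at least 20 TAP counts (8.33%), with 2 in the opposite set. No mitochondrial ribosomal protein gene of 67, 27 of them with at least 20 TAP counts, was a member, and 4 had the opposite pattern. Each list's share of members stands beside 13.8% over all identifiers with at least 20 TAP counts. The opposite pattern is given for the lists without a share. It made up 11.9% of all identifiers with at least 20 CIP/TAP counts. With these numbers no list is described as particular to the members.

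Sorted by known function after their values had been seen, 103 of the members fell into 9 broad roles, with median TAP counts of 29.5 to 44.5 by role, against 32 over all members. The roles carry no test. Among the 20 genes for DNA replication, repair and chromosome segregation, the median TAP count was 30. They included the checkpoint kinases MEC1 (1 in CIP/TAP, 25 in TAP) and TEL1 (0 and 38), and RAD50 (0 and 34), which acts in the repair of double-strand breaks. The repair factor RAD4 had 1 in CIP/TAP, 26 in TAP and 157 in ribo depletion, the highest of that role.

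Besides HTZ1, ARP6 and IES2, the 19 chromatin and transcription genes held CHD1, a remodeller (0 in CIP/TAP, 23 in TAP), ARP9 of the RSC and SWI/SNF complexes (1 and 26), the histone deacetylase HDA1 (0 and 29) and BRF1, a polymerase III initiation factor (2 and 32). Ribo depletion listed 0 counts for 12 of the 19 and at least 10 for 3, with HAP4, an activator of respiratory genes, highest at 167. Among 10 genes of RNA processing and decay, CDC39, the scaffold of the CCR4-NOT deadenylase, had 0 in CIP/TAP and 35 in TAP. TRL1, the tRNA ligase, had 1 and 34, and the splicing helicase PRP22 had 2 and 43.

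There were 12 mitochondrial genes. PET9, the main ADP/ATP carrier, had 0 in CIP/TAP, 41 in TAP and 0 in ribo depletion, and the prohibitin PHB2 had 0, 36 and 2. Secretion and vesicle traffic gave 11 members, among them both large-subunit genes APL5 and APL6 of the AP-3 adaptor (0 in CIP/TAP each, 25 and 43 in TAP) and the TRAPP subunits BET5 and TRS23 (1 and 0 in CIP/TAP, 36 and 30 in TAP). The 12 tRNA and translation genes held the synthetases for serine, SES1 (1 in CIP/TAP, 48 in TAP), phenylalanine, FRS1 (1 and 35), and aspartate, DPS1 (0 and 21), and URM1, a ubiquitin-like protein that modifies tRNA (0 and 56). Among 6 membrane transporters, PHO84 had 2 in CIP/TAP, 72 in TAP and 0 in ribo depletion, and the inositol transporter ITR1 had 0, 26 and 103.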

How the data were processed

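Wild-type BY4741 yeast was profiled by SMORE-seq, and 5 of the 17 samples of the series had values. The 12 chromatin samples were not analysed here. The authors deposited 3 tables of unnormalized whole-number counts per identifier (per the file headers), and 1 table covers the 3 ribo depletion samples. The tables hold 1097457 (CIP/TAP), 864536 (TAP) and 2821480 (ribo depletion) counts. bcl2fastq, BWA 0.6.2, bedtools, featureCounts and the build sacCer3 are listed per the submitters' processing notes, with no role. The sources used here do not state the counted feature or strand setting. Names and positions came from the R64 gene table of RefSeq, which matched 5794 of 5797 identifiers (the other 3 were at 0), and strand from the W or C of systematic names. No sequences were at hand, so planned promoter motif counts were not run.

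Ratios are log2 of (count + 0.5) over the library size scaled with edgeR 4.0.16 (TMM of the pair, R 4.3.3), with exact Clopper-Pearson 95% intervals conditional on the summed count (scipy 1.17.1). A change was counted at 2-fold where both tables together held at least 50 counts. A count of 0 was set at a floor of 3 counts per library, which is 2.73 CPM in CIP/TAP, 3.47 in TAP and 1.06 in ribo depletion. Intervals and floors cover counting error alone, as no molecular identifiers mark the reads. The ratio code was tested on simulated data. Members and lists were chosen with earlier results of these data known. Members named were the 20 with the most TAP counts, the 10 with the most ribo depletion counts, those with an upstream noncoding RNA gene within 500 bp, members of the lists and identifiers at the limits; others named, and the functional roles, were chosen after their values were seen.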

Additional observations from a re-analysis of the deposited data

How the results depend on the processing

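Of 31 alternatives, 16 left the value within 1.5 times of the reported count or within the counting interval of the reported ratio, 15 moved it and 0 reversed a direction. A count has no direction to reverse, so only the summed ratios could do so. The rule fixed the direction of CIP/TAP over TAP, so the absence of reversals says little. The number of members, 248, became 440 with at least 10 TAP counts, 38 with at least 50 and 135 with a CIP/TAP limit of 0. It was 248 again with CIP/TAP scaled to the TAP total. The opposite pattern, 208 identifiers, was 273 at a minimum of 10 CIP/TAP counts and 70 at a minimum of 50. It was 167 with CIP/TAP scaled to the TAP total, an alternative chosen after seeing the data. The log2 ratio of summed counts for TAP over ribo depletion, 1.08, was 2.36 with total counts, 1.45 with upper-quartile and 0.95 with DESeq2 1.42.0 scaling; total counts moved the median of all measured identifiers from −0.18 to 1.10. Identifiers at least 2-fold lower in CIP/TAP than TAP, 262, were 783 with a filter of 10 counts, 49 with 200 and 1115 with no filter. Members with at least 10 ribo depletion counts, 61 of 248, were 13 of the 38 with at least 50 TAP counts, an alternative also added later. Members with a close divergent neighbour, 42, were 17 within 300 bp and 83 within 1000 bp. Members beside an upstream noncoding RNA gene, 7, were 4 within 300 bp and 14 with a gene on either side; keeping in the identifiers left out by the rule, also added later, gave 9. The stricter or looser limits change these counts by construction. No paired analysis was possible because each group with values had a single column, and for the same reason no replicate could be left out. With 1 column a group, counts of 20 to 50 and 0 to 2 carry no replicate check.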

Other observations

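Some members lay next to each other or were related. There were 10 pairs adjacent in the gene order of the tables among the 248 members. The 208 identifiers of the opposite pattern held 9 such pairs, and the 909 others with 20 to 168 TAP counts held 189. Pairs become more frequent as a set grows and no expected number was computed, so no difference is read from these counts. The vitamin B6 genes SNO1 and SNZ1, divergent with 448 bp between them, had 0 and 2 counts in CIP/TAP and 22 and 35 in TAP. TDA4 and STE24, in tandem with 342 bp between them, had 1 and 0 in CIP/TAP and 33 and 35 in TAP, but 0 and 177 in ribo depletion. The sources used here do not state how many reads such neighbours share. Related genes were picked after their values were seen. The butanediol dehydrogenase genes BDH1 and BDH2, which are adjacent, had 0 and 2 in CIP/TAP and 29 and 36 in TAP. The kinases YPK1 and YPK2 had 2 and 0 in CIP/TAP and 41 and 53 in TAP, and PRY2 and PRY3 had 0 in CIP/TAP and 26 and 28 in TAP. PRM9 and MST27, of a family of similar membrane proteins, had 0 in CIP/TAP and 44 and 42 in TAP. Of the signal recognition particle, SEC65 and SRP68 were members, SRP54 had 1013 in CIP/TAP and 794 in TAP, and SRP14 had 0 in CIP/TAP and 18 in TAP.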
